A study of Mus musculus with 2 samples.

Results

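The smooth muscle contractile genes described here are Acta2, Tagln, Myl9, Tpm1, Tpm2, Cnn1, Mylk, Myh11, Cald1 and Des. They are 10 of the 31053 genes in the deposited matrices, were taken as a named list rather than chosen by their values, and were counted in cells that carried Rgs5, a pericyte gene, and in the other fibroblasts of small tumours, by host genotype. Smooth muscle cells and pericytes are the mural cells that wrap blood vessels, and they contract when calcium and calmodulin activate myosin light chain kinase, which phosphorylates the regulatory light chain of myosin so that its heads pull on actin filaments. Tropomyosin, calponin and caldesmon lie along those filaments and tune the pull, and desmin ties the filaments to the rest of the cell. Fibroblasts activated in wounds and tumours, called myofibroblasts, switch on part of the same set, with smooth muscle actin (Acta2) as the customary marker. Serum response factor, which binds a DNA element called the CArG box, and TGF-beta signalling are well-known drivers of these genes.

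The libraries are single-cell RNA sequencing of small subcutaneous tumours grown from B16F10, a melanoma line of C57BL/6 origin. All hosts carried Rosa26::CreERT2, a tamoxifen-activated recombinase driven in all tissues, and all were given tamoxifen according to the study's methods. Hosts with wild-type Atf4 (Atf4wt/wt) gave the library called WT, and hosts in which loxP-flanked Atf4 had been removed (Atf4D/D) gave the library called KO. Atf4 encodes a transcription factor of the integrated stress response. The deletion was in the whole host and not in fibroblasts alone, while the injected melanoma cells kept their own Atf4. Each library pooled 2 tumours from male and female hosts, which the labels give as 11 weeks old. There was therefore 1 library per genotype and no test between genotypes was possible. The intervals given are exact 95% intervals for counting error, and they leave out differences between cells and between mice.

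After the filters of the study, 3861 WT and 3557 KO cells remained, with medians of 3920 and 6279 UMIs, a UMI being 1 captured RNA molecule. Atf4 was at 256 CPM (the UMIs of the gene per 1000000 UMIs of the class) in other fibroblasts of WT and 47.2 CPM in those of KO, and at 226 and 209 CPM in melanoma cells. In the mural-gated cells described next, 21 Atf4 UMIs were counted in WT and 1 in KO. The libraries shared 10 barcodes as deposited and 1 among the cells kept, and 0 among the cells compared here. In WT, 0 mural-gated cells and 0 other fibroblasts had Y-linked UMIs without Xist, although the pool was labelled as both sexes, whereas KO had 6 and 47 such cells. Sex and genotype therefore could not be fully told apart, and ratios within cells with Xist and no Y-linked UMI are given for the genotype comparisons. Those ratios leave out 37 WT and 118 KO other fibroblasts with neither signal. In WT these had Acta2 at 1183 CPM (992 to 1399), against 694 CPM (629 to 765) in cells with Xist. In KO the values were 285 CPM (238 to 338) and 290 CPM (219 to 376). The restriction can therefore shift levels by itself.

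Cells were placed in classes by marker genes that include no contractile gene. A cell was mural-gated if it had at least 1 Rgs5 UMI and at least 3 of 12 mural markers and few melanoma or immune markers. Only 11 WT and 12 KO cells passed, which were 5.64% (2.85 to 9.87) of mural-gated cells and fibroblasts in WT and 5.15% (2.69 to 8.82) in KO. The log2 ratio of these shares, -0.13 (-1.44 to 1.19), was 0.80 with stricter exclusion of other lineages, which left 3 WT and 6 KO cells, and -0.62 with a stricter mural gate. Other fibroblasts had at least 6 of 12 fibroblast markers and under 5 of 11 endothelial markers, a limit the mural gate did not set, and numbered 184 (WT) and 221 (KO). All 12 mural markers had UMIs in the mural-gated cells of each library, which follows in part from the gate. In other fibroblasts of each library 10 of the 12 had UMIs. Of the 12 fibroblast markers, 11 had UMIs in WT and 9 in KO mural-gated cells. Pdgfra, a receptor gene of fibroblasts and one of these markers, had 0 UMIs in the mural-gated cells of either genotype. Pdgfrb, which is on the mural list, was at 334 CPM in WT other fibroblasts and lower, at 165 CPM, in WT mural-gated cells. In KO it was at 106 CPM in other fibroblasts and at 355 CPM in mural-gated cells. The fibroblast markers together were at 5554 CPM (WT) and 6596 CPM (KO) in these cells, against 51636 and 37648 CPM in other fibroblasts. Endothelial markers went against a purely mural identity in many of them. Of the mural-gated cells, 8 in WT and 6 in KO had UMIs of at least 5 of 11 endothelial markers, and these markers summed to 5895 and 7251 CPM there, near the 7303 and 7894 CPM of the endothelial cells themselves. The cells with 5 or more endothelial markers were also deeper, with medians of 13304.5 (WT) and 7020 (KO) UMIs against 4680 and 2644 in the rest. The remaining 3 WT and 6 KO cells had 0 to 2 endothelial markers each. Fibroblast markers were at 15022 CPM (WT) and 13755 CPM (KO) in this part, well above the values for all mural-gated cells. The 3 WT cells had 5, 8 and 7 of the 12 fibroblast markers, where other fibroblasts needed 6. A doublet caller marked 0 of the mural-gated cells, and whether the endothelial UMIs come from joined cells, attached fragments or the cells themselves was not tested. Results are given for all mural-gated cells and for the part with under 5 endothelial markers.

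The contractile genes lie on several chromosomes and have no common cluster. On GRCm38, Acta2 (ENSMUSG00000035783) occupies chr19:34241090-34255590 on the minus strand, Tagln (ENSMUSG00000032085) chr9:45929619-45936058 on the minus strand, Myl9 (ENSMUSG00000067818) chr2:156775420-156781658 on the plus strand, and Tpm1 (ENSMUSG00000032366) chr9:67022590-67049406 on the minus strand. Tpm2 (ENSMUSG00000028464) is at chr4:43514711-43523765 on the minus strand, Cnn1 (ENSMUSG00000001349) at chr9:22099216-22109630 on the plus strand, Mylk (ENSMUSG00000022836) at chr16:34745210-35002420 on the plus strand and Myh11 (ENSMUSG00000018830) at chr16:14194535-14291372 on the minus strand. Cald1 (ENSMUSG00000029761) is at chr6:34598500-34775473 and Des (ENSMUSG00000026208) at chr1:75360329-75368579, both on the plus strand. All are protein coding.

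The 250 bases before the annotated start are shown for 4 members because they fall on both sides of the main genotype comparison below. Acta2 and Myl9 were lower in KO than in WT fibroblasts, while Tpm1 and Tpm2 were not. The sequences are those of RefSeq on GRCm38.p6, read 5′ to 3′ on the strand of the gene, and capitals mark matches to the CArG box with at most 1 mismatch on either strand. The windows are chr19:34255374-34255623 for Acta2, chr2:156775214-156775463 for Myl9, chr9:67049214-67049463 for Tpm1 and chr4:43523555-43523804 for Tpm2. Each window ends at the RefSeq start and runs past the outermost GENCODE start of the gene given above, so some transcripts begin inside it.
Acta2: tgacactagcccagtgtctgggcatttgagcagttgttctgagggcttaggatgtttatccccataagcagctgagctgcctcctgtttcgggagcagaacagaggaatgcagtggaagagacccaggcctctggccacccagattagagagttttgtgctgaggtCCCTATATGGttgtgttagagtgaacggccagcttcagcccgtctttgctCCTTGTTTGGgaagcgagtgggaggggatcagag
Myl9: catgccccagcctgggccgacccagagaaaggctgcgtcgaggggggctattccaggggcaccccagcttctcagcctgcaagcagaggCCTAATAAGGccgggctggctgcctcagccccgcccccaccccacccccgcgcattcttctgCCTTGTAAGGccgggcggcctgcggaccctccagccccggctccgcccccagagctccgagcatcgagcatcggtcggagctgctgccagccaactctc
Tpm1: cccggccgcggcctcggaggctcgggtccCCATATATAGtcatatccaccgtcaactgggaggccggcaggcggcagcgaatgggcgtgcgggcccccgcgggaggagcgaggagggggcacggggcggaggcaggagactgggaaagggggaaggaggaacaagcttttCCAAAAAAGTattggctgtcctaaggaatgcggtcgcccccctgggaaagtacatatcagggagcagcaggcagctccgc
Tpm2: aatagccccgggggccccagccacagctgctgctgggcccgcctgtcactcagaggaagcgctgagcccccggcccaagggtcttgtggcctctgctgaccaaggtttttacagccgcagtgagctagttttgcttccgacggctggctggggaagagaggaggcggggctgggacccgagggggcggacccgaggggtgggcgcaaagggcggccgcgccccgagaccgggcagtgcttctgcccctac

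An exact CArG box was found in Myl9, CCTAATAAGG at 161 to 152 bases before the start. Among all 32851 promoter windows of this length 1.47% held an exact match, and 1 of 9 windows of the members did, over the 8 members that could be matched. With 1 mismatch allowed, 4 of 9 member windows had a match against 18.6% of all windows. Acta2 had CCCTATATGG at 84 to 75 and CCTTGTTTGG at 34 to 25 bases before the start, and Tpm1 had CCATATATAG at 221 to 212 and CCAAAAAAGT at 80 to 71. Tpm2 had no match in its window. The MCAT element, CATTCC or GGAATG read on both strands and bound by TEAD factors, was in 4 of 9 member windows against 12.6% of all, among them Acta2 at 146 to 141 and Tpm1 at 56 to 51 bases before the start. A CArG match with at most 1 mismatch was thus present in Acta2, Myl9 and Tpm1, and not in Tpm2. Whether such matches go with the level in KO fibroblasts was not tested, and 4 short windows cannot show it. Tagln and Myh11 had no entry and are named only.

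The first comparison asks which contractile genes distinguished mural-gated cells from other fibroblasts of the same tumours. Acta2, which encodes the actin of smooth muscle filaments, was at 1473 CPM (179 UMIs) in WT mural-gated cells and 774 CPM (549 UMIs) in WT other fibroblasts. In KO it was at 2653 CPM (142 UMIs) and 317 CPM (289 UMIs). Mural-gated cells were the higher class in both libraries, by a log2 ratio of 0.93 (0.68 to 1.18) in WT and of 3.07 (2.77 to 3.36) in KO. Tagln, which encodes transgelin, an actin-binding protein, was at 395 CPM in mural-gated cells and 478 CPM in other fibroblasts of WT, and at 1607 and 219 CPM in KO. The WT classes could not be told apart for Tagln, with a log2 ratio of -0.27 (-0.74 to 0.16), while the KO ratio was 2.87 (2.49 to 3.25). One KO cell held 42 of the 86 Tagln UMIs of its class, so this level rests largely on a single cell.

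The tropomyosins and caldesmon, which lie along the actin filament, were also plentiful outside mural-gated cells. Tpm1 was at 560 CPM in mural-gated cells and 326 CPM in other fibroblasts of WT, and at 878 and 471 CPM in KO, giving log2 ratios of 0.78 (0.37 to 1.18) and 0.90 (0.43 to 1.34). Tpm2 was lower in the mural-gated cells of WT, at 198 against 323 CPM, and higher in those of KO, at 617 against 331 CPM. Its log2 ratios were -0.71 (-1.38 to -0.10) in WT and 0.90 (0.33 to 1.42) in KO. Cald1, which encodes caldesmon, was at 724 CPM in mural-gated cells and 1236 CPM in other fibroblasts of WT, and at 1028 and 1259 CPM in KO. It was the member that other fibroblasts had at least as high as mural-gated cells in both libraries, with log2 ratios of -0.77 (-1.10 to -0.45) and -0.29 (-0.71 to 0.10). Cnn1, which encodes the calponin of differentiated smooth muscle, had 1 UMI in the mural-gated cells of WT and 0 in those of KO. No Cnn1 UMI was counted in other fibroblasts of either library, which allows a level of up to 5.20 CPM in WT and 4.045 CPM in KO.

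Taken over all mural-gated cells, the myosin genes and desmin were at higher levels than in other fibroblasts of both libraries. Myl9, the regulatory light chain, was at 222 CPM in mural-gated cells and 83.1 CPM in other fibroblasts of WT, and at 504.5 and 45.0 CPM in KO, which gave log2 ratios of 1.42 (0.70 to 2.10) and 3.49 (2.73 to 4.22). Mylk, the kinase that phosphorylates it, was at 140 and 23.9 CPM in WT and at 542 and 13.2 CPM in KO. Its log2 ratios were 2.55 (1.49 to 3.60) and 5.36 (4.35 to 6.47). Myh11, the heavy chain of smooth muscle myosin, had 8 UMIs in WT and 6 in KO mural-gated cells and 0 in 184 and 221 other fibroblasts. Against a floor of 3 UMIs over all other fibroblasts of a library, Myh11 was 15.6-fold higher in WT and 34.1-fold in KO mural-gated cells. These ratios leave out the counting error of the 8 and 6 UMIs. The Myh11 interval was 28.4 to 130 CPM in WT and 41.1 to 244 CPM in KO mural-gated cells. In other fibroblasts it reached up to 5.20 CPM (WT) and 4.045 CPM (KO). Des, which encodes desmin, the intermediate filament of muscle, was at 74.0 CPM (9 UMIs) and 11.3 CPM (8 UMIs) in WT and at 486 CPM (26 UMIs) and 15.4 CPM (14 UMIs) in KO. The Des ratios were 2.72 (1.17 to 4.29) and 4.98 (3.99 to 6.03) on the log2 scale. Of 14 skeletal muscle genes, 1 UMI was counted in WT and 0 in KO mural-gated cells, so markers of skeletal muscle, which also makes desmin, were near 0.

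Over members with at least 20 UMIs in the classes compared, 2 of 7 in WT, Myl9 and Mylk, were at least 2-fold higher in mural-gated cells, where 10.1% of all 5224 genes tested were, and 0 were at least 2-fold lower, where 18.4% were. In KO 5 of 8 were, namely Acta2, Tagln, Myl9, Mylk and Des, where 13.4% of 5601 genes were, and 0 were at least 2-fold lower, where 12.3% were. The median log2 ratio over these members was 0.78 in WT and 2.97 in KO, beside medians over all genes of -0.04 and -0.16. Summed over the 10 genes, the contractile level was 3859 CPM in mural-gated cells and 3253 CPM in other fibroblasts of WT, and 8427 and 2670 CPM in KO. The sum is a sum of molecules and is carried mostly by Acta2, Cald1, Tagln and Tpm1. Its log2 ratio was 0.25 (0.10 to 0.39) in WT, which turned to -0.31 with a stricter mural gate, and 1.66 (1.51 to 1.804) in KO.

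**Figure D1:**
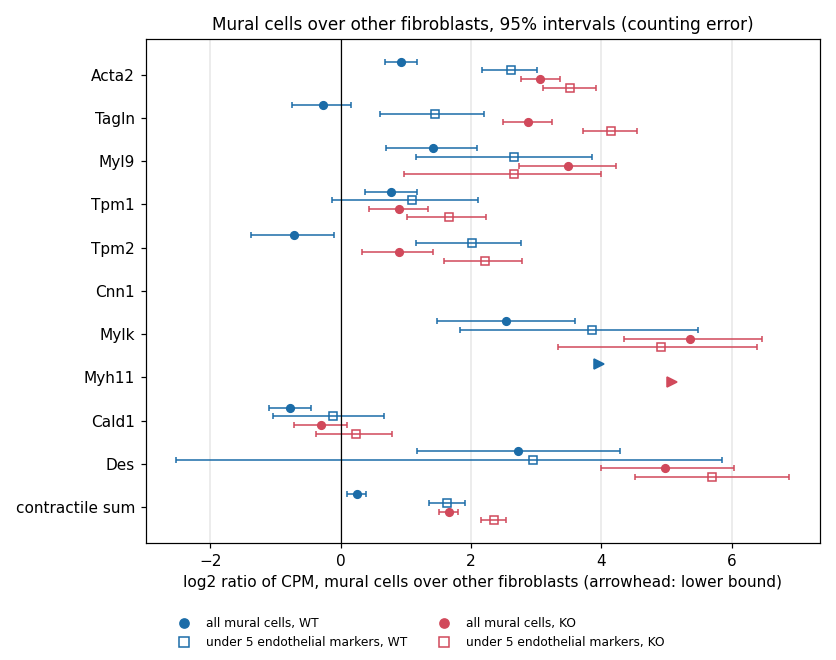
Log2 ratio of CPM (horizontal axis) of mural-gated cells over other fibroblasts for each contractile gene and their sum, in WT (blue) and KO (red), with filled circles for all mural-gated cells, open squares for those with under 5 endothelial markers and bars for 95% counting intervals. Mylk and Des lie far to the right in both libraries, Cald1 lies at or left of 0 for all mural-gated cells, and the WT squares for Acta2, Tagln and Tpm2 lie well to the right of the WT circles. The bar of the WT square of Des crosses 0. Arrowheads, named lower bounds on the axis, are the ratios of Myh11 against a floor of 3 UMIs. They leave out the counting error of the Myh11 UMIs. Cnn1 has no ratio.

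The difference between all mural-gated cells and other fibroblasts depended on the endothelial markers. In the 3 WT cells with few of them the contractile sum was 10131 CPM, against 3207 CPM in the 8 with many. The corresponding values in KO were 13641 CPM in 6 cells and 5890 CPM in 6 cells. Against other fibroblasts, the sum of the cells with few endothelial markers gave log2 ratios of 1.64 (1.36 to 1.91) in WT and 2.35 (2.16 to 2.54) in KO. The cells with many endothelial markers gave -0.02 (-0.19 to 0.14) in WT and 1.14 (0.93 to 1.34) in KO. Acta2 was 2.61 (2.18 to 3.01) and 3.53 (3.11 to 3.92) above other fibroblasts on the log2 scale in the WT and KO cells with few endothelial markers. Tagln and Tpm2, which were not above other fibroblasts in all WT mural-gated cells, had log2 ratios of 1.46 (0.60 to 2.20) and 2.02 (1.16 to 2.77) in the WT cells with few endothelial markers. Cald1 in these cells was level with other fibroblasts, at -0.12 (-1.04 to 0.66) in WT and 0.24 (-0.38 to 0.80) in KO. Myl9 gave 2.66 (1.15 to 3.86) in WT and 2.67 (0.97 to 4.004) in KO there, on 6 and 5 UMIs. Mylk gave 3.87 (1.84 to 5.48) and 4.92 (3.34 to 6.39), on 4 and 7 UMIs. Des gave 5.702 (4.52 to 6.88) in KO. In WT it had 1 UMI and gave 2.95 (-2.52 to 5.85), too few counts to show a difference. Cells with 5 or more endothelial markers held 13 of the 17 WT and 22 of the 29 KO Mylk UMIs. The Myh11 UMIs were found mostly on the other side of this division, with 8 of the 8 WT UMIs and 4 of the 6 KO UMIs in cells with 5 or more endothelial markers.

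Single cells varied widely around these sums. The contractile sum per WT mural-gated cell ran from 725 to 19374 CPM with a median of 2339 CPM, and per KO cell from 1509 to 33450 CPM with a median of 5758 CPM. The ranges overlapped, and within each library the cells with few endothelial markers were mostly the high ones. In WT the 3 cells with few of them were at 19374, 11539 and 4835 CPM, while 6 of the 8 others were at or under 2339 CPM and 2 reached 9534 and 8690 CPM. In KO the 6 cells with few of them ran from 4872 to 33450 CPM, and of the 6 others 1 reached 16610 CPM while 5 were at or under 4179 CPM. Acta2 itself ran from 104 to 7452 CPM per cell in WT, with a median of 858 CPM, and from 0 to 9135 CPM in KO, with a median of 1214 CPM. The deepest cell in contractile UMIs held 55 of 179 Acta2 UMIs in WT and 53 of 142 in KO, and both were cells with endothelial markers. That WT cell, with 14960 UMIs, had UMIs of all 10 contractile genes and of 11 endothelial markers.

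**Figure D2:**
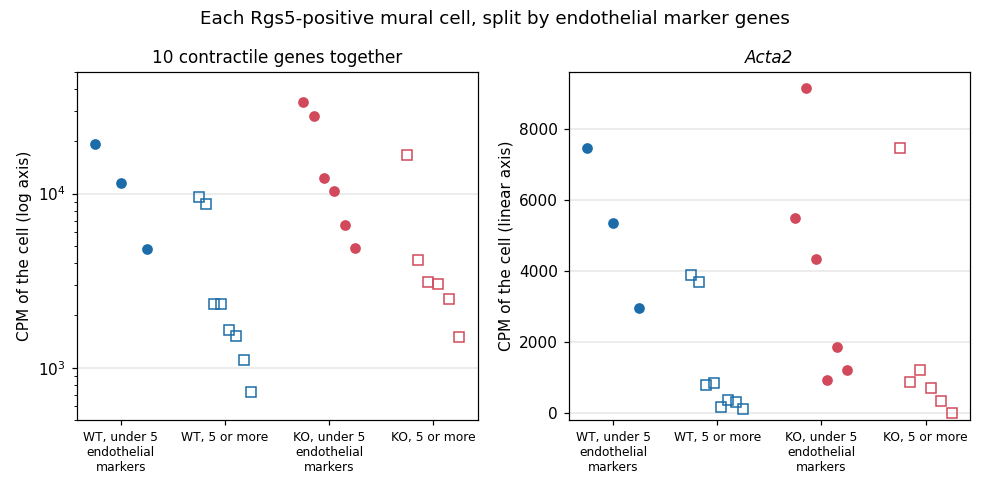
Each point is 1 mural-gated cell, filled where the cell had under 5 endothelial markers and open where it had 5 or more, in WT (blue) and KO (red), with the CPM of the 10 contractile genes together on a log axis at left and the CPM of Acta2 on a linear axis at right. The filled points sit at 4835 CPM or above at left, and all but 3 of the open points sit at or under 4179 CPM.

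Since cells differed in depth, each cell was also thinned to 2000 UMIs, which left out 3 KO mural-gated cells and 28 WT and 30 KO other fibroblasts. The median number of the 10 genes with a UMI was then 3 in WT and 5 in KO mural-gated cells, and 2 in other fibroblasts of both libraries. At least 4 of the genes were seen in 4 of 11 WT mural-gated cells (36.4%, 10.9 to 69.2) and in 8 of 9 KO cells (88.9%, 51.7 to 99.7). Among other fibroblasts the share was 23.7% (17.3 to 31.2) in WT and 13.6% (9.09 to 19.3) in KO, and 0 of 44 WT and 15 KO endothelial cells and 0 of 545 WT and 415 KO macrophages and monocytes reached it. Acta2 was seen after thinning in 63.6% of WT and 100% of KO mural-gated cells, and in 39.7% of WT and 16.8% of KO other fibroblasts. Macrophages and monocytes, which should lack Acta2 and so show the level of free RNA in the droplets, had an Acta2 UMI in 0.734% of WT and 1.20% of KO cells at this depth.

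The second comparison asks whether the contractile genes differed by host genotype among mural-gated cells. All 8 members with at least 20 UMIs over both libraries had a higher level in KO, and 5 of them, Tagln, Myl9, Tpm2, Mylk and Des, were at least 2-fold higher, where 9.07% of 1411 genes were. None was at least 2-fold lower, where 7.87% were. The median log2 ratio over the 8 was 1.41, beside -0.04 over all genes. Acta2 (1473 CPM, WT, and 2653 CPM, KO) gave 0.85 (0.52 to 1.18). Tpm2, at 198 and 617 CPM, gave 1.64 (0.84 to 2.46), and Mylk, at 140 and 542 CPM, gave 1.95 (1.04 to 2.91). Des had 9 UMIs in WT and 26 in KO, from a pool of less than the WT depth, and gave 2.71 (1.58 to 3.99). The values of Tpm1 (0.65, 0.08 to 1.21) and Cald1 (0.51, -0.01 to 1.01) were smaller, and that of Myh11 (0.77, -1.04 to 2.49) was not detectable as a difference at this depth. The contractile sum differed by 1.13 (0.94 to 1.32).

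The mural-gated cells of the 2 libraries were not alike in other respects. WT had 8 of 11 cells with many endothelial markers and KO 6 of 12, and the median depth was 11190 UMIs in WT and 3524 in KO. Among cells with few endothelial markers the contractile sum differed by 0.43 (0.10 to 0.76) between KO and WT, and Acta2, at 4716 CPM in 3 WT cells and 3653 CPM in 6 KO cells, gave -0.37 (-0.91 to 0.18), the other direction. Myl9 also turned, at -0.88 (-2.93 to 1.10) on 6 and 5 UMIs. Tagln kept 1.57 (0.75 to 2.48), with 42 of its 68 KO UMIs in 1 cell, and Des gave 3.19 (0.48 to 8.60) on 1 and 14 UMIs. Among cells with many endothelial markers the sum gave 0.88 (0.62 to 1.13) and Acta2 0.93 (0.51 to 1.35). Restricting both libraries to cells with Xist and no Y-linked UMI left 11 WT and 3 KO cells. In these Acta2 was at 1473 CPM (1265 to 1705) and 2099 CPM (1426 to 2979) and gave 0.51, with intervals that overlapped. Tpm1 gave -0.24 (-1.61 to 0.88) and Cald1 -0.25 (-1.43 to 0.74). The 6 KO cells with Y-linked UMIs and no Xist had Acta2 at 3678 CPM. The part of depth, endothelial markers and sex in the KO level was not tested.

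The third comparison sets the genotypes against each other in other fibroblasts, where the counts are larger. Acta2 was at 774 CPM (710 to 841) in WT and 317 CPM (281 to 356) in KO, Tagln at 478 CPM (428 to 531) and 219 CPM (190 to 252), and Myl9 at 83.1 CPM (63.3 to 107) and 45.0 CPM (32.3 to 61.0). The intervals of the libraries did not overlap for any of the 3, and KO was lower, by log2 ratios of -1.29 (-1.50 to -1.08) for Acta2, -1.12 (-1.38 to -0.87) for Tagln and -0.89 (-1.50 to -0.29) for Myl9. Tpm1 went the other way, at 326 CPM (285 to 370) in WT and 471 CPM (427 to 517) in KO, for which the log2 ratio was 0.53 (0.30 to 0.77). This ratio moved with the sex-linked genes, since KO cells with Xist and no Y-linked UMI gave 0.15 (-0.27 to 0.56) against the like WT cells, and KO cells with Y-linked UMIs and no Xist gave 0.86 (0.54 to 1.18) against them. Tpm2 and Cald1 were level, at 323 and 331 CPM and at 1236 and 1259 CPM, with log2 ratios of 0.04 (-0.21 to 0.29) and 0.03 (-0.10 to 0.16). Mylk (17 and 12 UMIs) and Des (8 and 14 UMIs) gave -0.86 (-2.06 to 0.29) and 0.45 (-0.91 to 1.91), which is too few counts to show a difference. Of 8 members, 2, Acta2 and Tagln, were at least 2-fold lower in KO, where 5.67% of 7234 genes were, and 0 were at least 2-fold higher, where 5.31% were. The median over the 8 was -0.42, beside -0.03 over all genes. The contractile sum was 3253 CPM in WT and 2670 CPM in KO, a log2 ratio of -0.28 (-0.37 to -0.20). Within cells with Xist alone the sum gave -0.40 (-0.55 to -0.25), Myl9 -2.49 (-4.82 to -0.87) on 52 and 3 UMIs and Des, which turned, -1.19 (-6.68 to 1.77) on 7 and 1 UMIs. The KO cells with Y-linked UMIs and no Xist gave -0.03 (-0.16 to 0.09) for the sum and -0.41 (-1.29 to 0.40) for Myl9 against WT cells with Xist.

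Acta2, Tagln, Myl9 and the contractile sum therefore had KO over WT ratios of opposite sign in mural-gated cells and in other fibroblasts. For Acta2 and Myl9 the sign in mural-gated cells turned in the cells with few endothelial markers, and for Myl9 it also turned, to -0.18, as a mean of each cell's CPM. Acta2 in other fibroblasts was lower in KO under all 14 alternative settings tried, with log2 ratios from -1.47 to -1.10. The settings with no upper limit on genes, Rgs5 alone as the gate and few endothelial markers left the other fibroblasts unchanged. Their ratio could therefore not differ from the main one.

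**Figure D3:**
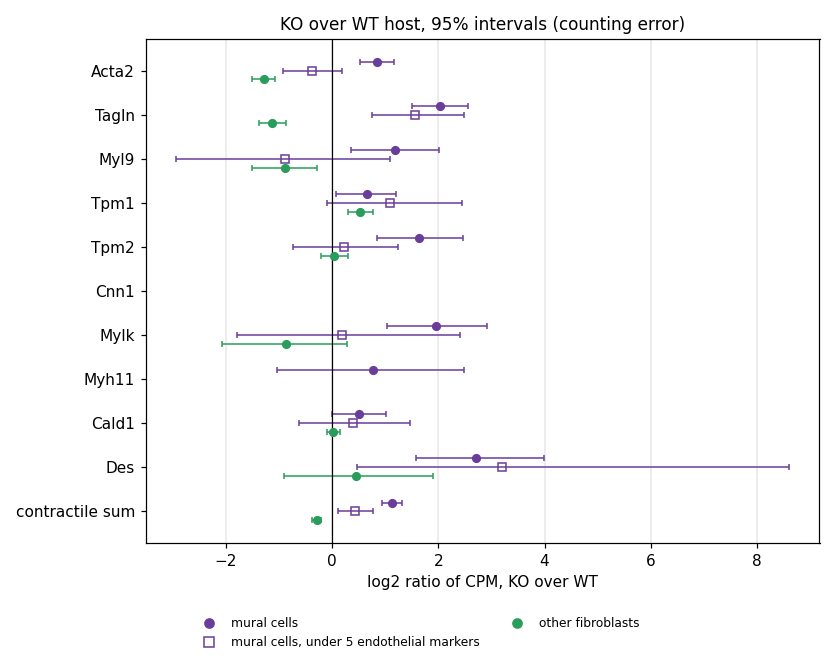
Log2 ratio of CPM in KO over WT (horizontal axis) for each contractile gene and their sum, in mural-gated cells (filled purple circles), in mural-gated cells with under 5 endothelial markers (open purple squares) and in other fibroblasts (green), with 95% counting intervals. Acta2, Tagln and Myl9 are left of 0 in other fibroblasts and right of 0 in all mural-gated cells, the squares of Acta2 and Myl9 lie left of 0, and Cald1 and Tpm2 sit at 0 in other fibroblasts.

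The UMIs of Acta2 and Tagln came from a small part of the fibroblasts. Acta2 was seen in 42.4% of 184 WT and 20.8% of 221 KO other fibroblasts, with medians of 3690 and 3739 UMIs per cell. In macrophages and monocytes it was seen in 1.08% and 1.63%, with medians of 2114 and 2227 UMIs. The cells with 5 or more Acta2 UMIs were 31 of 184 in WT (16.8%, 11.7 to 23.1) and 15 of 221 in KO (6.79%, 3.85 to 10.9), and they held 82.7% of the Acta2 UMIs in WT and 80.3% in KO. They were deeper than the rest, with medians of 5544 against 3314 UMIs in WT and 5305 against 3700 in KO, and they held 25.2% and 10.0% of all UMIs of the class. Tagln, which did not enter this cut, was at 1383 CPM in the WT and 1567 CPM in the KO cells with 5 or more Acta2 UMIs, against 173 and 69.5 CPM in the rest. Thus Tagln was at a similar level in the Acta2-high cells of both genotypes and lower in KO among the remaining cells. Cald1 was at 1490 and 1830 CPM in Acta2-high cells and at 1150 and 1195 CPM in the rest, a much smaller gap. The tenth of cells with most UMIs of a gene held 67.4% (WT) and 88.6% (KO) of the Acta2 UMIs, 69.6% and 96.0% of the Tagln UMIs, but 27.4% and 27.2% of the Cald1 UMIs. Tpm1 lay between them, with 44.2% and 42.0%. The cut at 5 UMIs defines a range of levels and no cell type.

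**Figure D4:**
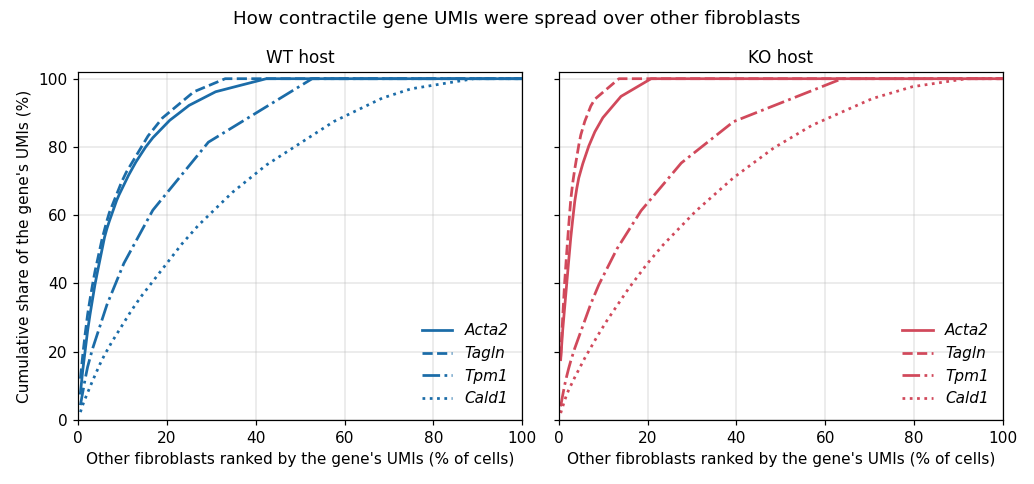
Other fibroblasts were ranked by their UMIs of a gene (horizontal axis, percent of cells), and the cumulative share of that gene's UMIs is on the vertical axis (percent), for WT at left and KO at right. Acta2 (solid) and Tagln (dashed) rise steeply and reach 100% within the first 42.4% of WT cells, and earlier still in KO, whereas Cald1 (dotted) rises slowly in both.

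Subsets of other fibroblasts, cut by genes that are no members and overlapping each other, did not share the Acta2 difference equally. In cells with Pi16 or Clec3b, genes of resting fibroblasts around vessels and in connective tissue, Acta2 was at 440 CPM (357 to 535) in 58 WT cells and 42.6 CPM (15.6 to 92.7) in 45 KO cells, a log2 ratio of -3.37 (-4.85 to -2.19). Cald1 was level in the same cells, with -0.03 (-0.34 to 0.27). In cells with Lrrc15 or Il1rl1, of which Lrrc15 marks TGF-beta-driven tumour fibroblasts, Acta2 was at 853.5 and 324.5 CPM (66 and 114 cells) and the ratio was -1.40 (-1.68 to -1.12). Dividing cells, with Mki67 or Top2a, had 914 and 503 CPM (46 and 39 cells) and -0.86 (-1.21 to -0.53). In cells with Pgf or Slc2a1, genes raised by low oxygen, Acta2 was at 340 and 285 CPM (40 and 88 cells), a ratio of -0.25 (-0.71 to 0.22), and Tpm1 was higher in KO by 1.32 (0.80 to 1.86), while Tagln was lower, at -1.17 (-1.72 to -0.62).

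Other fibroblasts with 3 or more mural markers and no Rgs5 UMI had Acta2 at 1116 CPM (934 to 1322) in 22 WT cells and at 1459 CPM (1170 to 1798) in 14 KO cells. The log2 ratio was 0.39 (-0.02 to 0.79), so no lower level in KO was seen in these cells. Other fibroblasts with under 3 mural markers were at 704.5 CPM in 162 WT cells and 236 CPM in 207 KO cells, with a ratio of -1.58 (-1.83 to -1.33). Within KO, Acta2 was higher by 2.63 (2.25 to 2.997) in fibroblasts with 3 or more mural markers than in those with fewer, and within WT by 0.66 (0.37 to 0.95). The mural list includes Pdgfrb, which was itself lower in KO than in WT other fibroblasts, by -1.65 (-2.01 to -1.30). The subsets therefore need not hold like cells in both libraries. Notch3, also on the list, gave -0.68 (-1.61 to 0.22). Among other fibroblasts with Xist and no Y-linked UMI, Acta2 was at 694 CPM in 147 WT cells and 290 CPM in 56 KO cells, a log2 ratio of -1.26 (-1.69 to -0.86), and the 47 KO cells with Y-linked UMIs and no Xist were at 395 CPM.

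**Figure D5:**
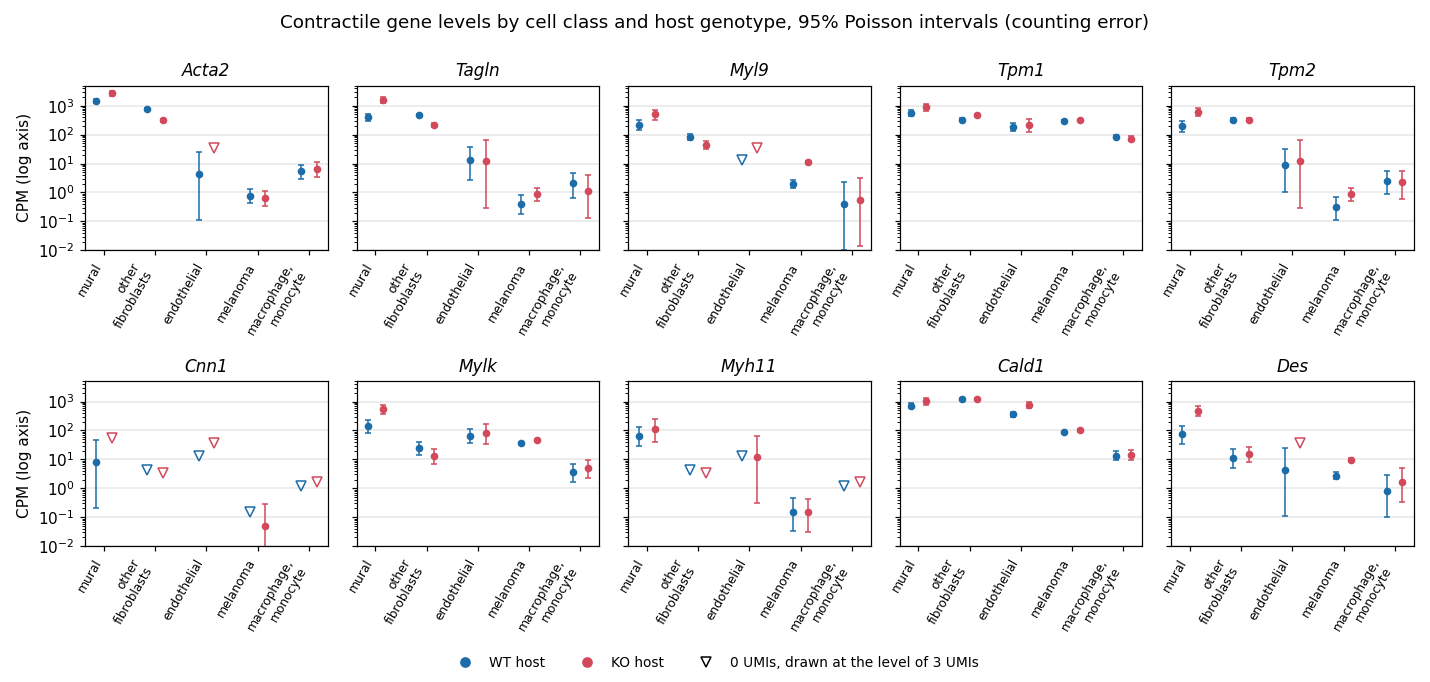
CPM (log axis) of each contractile gene in mural-gated cells, other fibroblasts, endothelial cells, melanoma cells, and macrophages and monocytes of WT (blue) and KO (red) hosts, with 95% Poisson intervals and open triangles at the level of 3 UMIs where none was counted. In WT, Acta2 is at 1473 CPM in mural-gated cells and at 4.402, 0.778 and 5.33 CPM in the last 3 classes, while Tpm1 is at 73.5 CPM or more in each class of either library.

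Across the tumour the members fell into restricted and broad genes. Other fibroblasts held 64.1% of all Acta2 UMIs of kept cells in WT and 59.6% in KO, and the few mural-gated cells held 20.9% and 29.3%. Melanoma cells held 84.7% and 81.9% of the Tpm1 UMIs, and 85.1% and 86.7% of the Mylk UMIs, beside 76.4% and 78.4% of the UMIs of all genes. In melanoma cells the level of Tpm1 was 304 CPM (WT) and 317 CPM (KO), that of Cald1 85.1 and 106 CPM and that of Mylk 37.1 and 45.7 CPM. Mylk was therefore higher there than in other fibroblasts of KO, while in WT the intervals of 34.4 to 39.9 and 14.0 to 38.4 CPM overlapped. Acta2 was at 0.778 and 0.656 CPM in melanoma cells, and at 5.33 and 6.68 CPM in macrophages and monocytes. Endothelial cells had 1 Acta2 UMI in 60 WT cells and 0 in 19 KO cells, but Tpm1 at 189 and 213 CPM and Mylk at 66.0 and 82.9 CPM. Cald1 in endothelial cells was at 361 CPM (287 to 448) in WT and 769 CPM (594 to 981) in KO, a log2 ratio of 1.09 (0.60 to 1.58). The order of Acta2 levels in WT was mural-gated cells, other fibroblasts, macrophages and monocytes (2.84 to 9.11 CPM) and then melanoma cells (0.436 to 1.28 CPM). The level of endothelial cells, with an interval of 0.111 to 24.5 CPM on 1 UMI, was below other fibroblasts but could not be placed among the last classes.

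In melanoma cells, which were not deleted for Atf4, 4 of 8 members, all of low level, were at least 2-fold higher in KO hosts, where 3.46% of 12170 genes were. Tagln and Tpm2 were among them on 8 and 17 and on 6 and 17 UMIs, with log2 ratios of 1.05 (-0.24 to 2.47) and 1.46 (0.05 to 3.09), and Myl9 and Des had the larger counts. Myl9 was at 1.97 CPM (38 UMIs) in WT and 11.2 CPM (221 UMIs) in KO, and its log2 ratio was 2.50 (1.999 to 3.04). In KO 121 of 1729 melanoma cells had a Myl9 UMI, and 21 cells with 3 or more held 104 of the 221 UMIs. Des was at 2.70 CPM (52 UMIs) and 9.74 CPM (193 UMIs), a ratio of 1.85 (1.40 to 2.32), and was spread more evenly, over 177 KO cells of which 1 had 3 UMIs. In the barcodes left out by the cell filter Myl9 was at 2.96 and 7.84 CPM and Des at 5.08 and 11.8 CPM. Myl9 in macrophages and monocytes was at 1 UMI in each library. The abundant members differed by less, with 0.31 (0.22 to 0.40) for Cald1, 0.30 (0.16 to 0.44) for Mylk and 0.06 (0.01 to 0.11) for Tpm1.

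Genes that work with the contractile ones were counted from lists drawn up with earlier results of these data known. Of 45 smooth muscle partner genes, 23 could be measured between WT mural-gated cells and other fibroblasts, and 5 were at least 2-fold higher and 4 at least 2-fold lower, beside 10.1% higher and 18.4% lower among all genes. The higher ones were Csrp1, Itga1, Actn4, Filip1l and Hspb1, and the lower ones Csrp2, Itga5, Palld and Atp2a2. These calls go by size alone, and the interval of Filip1l included 0 (-0.51 to 2.56). In KO 24 could be measured, of which 9 were higher and 2 lower, beside 13.4% and 12.3%. Itga1, the alpha1 integrin that binds collagen and laminin, had log2 ratios of 1.39 (0.68 to 2.07) in WT and 3.69 (2.999 to 4.36) in KO, and Csrp1, a LIM protein of smooth muscle, 1.38 (0.78 to 1.96) and 2.34 (1.58 to 3.04). Actg2, the other smooth muscle actin, was at 187 CPM (10 UMIs) in mural-gated cells and 12.1 CPM in other fibroblasts of KO. The list medians were 0.07 in WT and 0.71 in KO. These values cover all mural-gated cells, of which 8 of 11 in WT and 6 of 12 in KO had 5 or more endothelial markers. In those with few, Itga1 gave 2.37 (0.69 to 3.67) in WT and 3.67 (2.57 to 4.64) in KO, Csrp1 1.90 (0.24 to 3.18) and 2.81 (1.70 to 3.77), and Hspb1 2.54 (0.19 to 4.22) and 2.52 (1.52 to 3.38), all on 3 to 12 UMIs. Actn4, at 462 CPM in WT endothelial cells, had 2 of its 51 WT mural-gated UMIs in the cells with few endothelial markers and gave 0.35 (-2.71 to 2.25) there. All 10 Actg2 UMIs of KO mural-gated cells lay in the cells with few endothelial markers, and all 10 of WT in the cells with many.

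Between genotypes, 4 of 18 measured partners were at least 2-fold higher in KO mural-gated cells and 0 lower, namely Actg2, Itga1, Pdlim7 and Ppp1r14a, an inhibitor of the myosin phosphatase, which gave 1.56 (0.26 to 2.91) on 10 and 13 UMIs. Among all genes 9.07% were higher and 7.87% lower. The interval of Actg2 included 0 (-0.24 to 2.60). In other fibroblasts 2 of 23 were higher in KO and 2 lower, beside 5.31% and 5.67% of all genes. The higher ones were the small heat shock genes Hspb1, with 45.1 CPM (WT) and 120 CPM (KO), and Cryab, at 125 and 321 CPM, with ratios of 1.41 (0.83 to 2.02) and 1.36 (1.01 to 1.72). Palld, which encodes the actin-bundling protein palladin of myofibroblasts, was at 214 and 76.8 CPM, with a ratio of -1.48 (-1.91 to -1.06), and Csrp2 at 634 and 315 CPM, with -1.01 (-1.23 to -0.79). The median of the list in other fibroblasts was -0.00.

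Among the regulators of smooth muscle genes, 31 of 33 listed were in the files. Mef2c, a transcription factor of muscle and endothelium, was higher in mural-gated cells of WT by 3.40 (2.60 to 4.24) and of KO by 3.62 (2.66 to 4.55), and Klf4, a repressor of contractile genes, was lower by -2.08 (-3.31 to -1.08) and -1.85 (-3.48 to -0.61). In the cells with few endothelial markers Mef2c gave 3.56 (1.56 to 5.13) on 4 UMIs in WT and 2.06 (-1.07 to 4.06) on 2 UMIs in KO, and it was at 282 and 260 CPM in endothelial cells, while Klf4 gave -1.68 (-6.99 to 0.82) and -1.56 (-4.61 to 0.30). Notch3, Pdgfrb and Pdgfra served in the gates, so their ratios are no result. Without them, 3 of 15 regulators were 2-fold higher and 5 lower in WT, beside 10.1% and 18.4% of all genes, and 7 of 15 were higher and 2 lower in KO, beside 13.4% and 12.3%. The intervals of Tgfb3 and Smad3 in WT and of Srf, Jag1 and Yap1 in KO, which are counted here, included 0. Ednrb, an endothelin receptor, was at 98.7 CPM in the mural-gated cells of WT and at 355 CPM in those of KO, a ratio of 1.85 (0.73 to 3.02), and in KO other fibroblasts at 2.19 CPM. All of its mural-gated UMIs, 12 in WT and 19 in KO, lay in cells with 5 or more endothelial markers, and endothelial cells had it at 330 and 462 CPM. In other fibroblasts 5 of 23 regulators were at least 2-fold lower in KO and 2 higher, beside 5.67% and 5.31% of all genes. The lower ones were Heyl, Tgfb3, Notch1, Jag1 and Pdgfrb, of which Heyl, a target of Notch signalling in mural cells, was at 76.1 CPM (54 UMIs) in WT and 8.77 CPM (8 UMIs) in KO, with a ratio of -3.12 (-4.399 to -2.04). Tgfb3, a TGF-beta ligand, was at 31.0 and 6.58 CPM, with -2.24 (-3.83 to -0.89). Notch2 and Mkl2 were the higher ones, on 27 and 20 UMIs in KO, and the interval of Mkl2 included 0 (-0.15 to 2.64). Srf could be compared in other fibroblasts only loosely, at 33.8 and 20.8 CPM, with -0.70 (-1.65 to 0.23).

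Most of the cytoskeletal relatives of the members are expressed by all cells. Of 21 listed, 13 were measured between WT mural-gated cells and other fibroblasts, where Myl12b alone was 2-fold higher, beside 10.1% of all genes. Of 14 measured in KO, Actg2 and Myl12b were, beside 13.4% of all genes. None was at least 2-fold lower, where 18.4% (WT) and 12.3% (KO) of all genes were. Myl12b had 1 of its 21 WT and 2 of its 10 KO mural-gated UMIs in cells with few endothelial markers. Between genotypes in mural-gated cells 1 of 13 was at least 2-fold higher in KO, Actg2 as above, and 1 lower, Cnn3 at -1.10 (-2.41 to 0.02). Among all genes 9.07% were higher and 7.87% lower there. Between genotypes in other fibroblasts 0 of 13 reached 2-fold in either direction, where 5.31% of all genes were higher and 5.67% lower. The median of the list was -0.33. In fibroblasts of WT and KO, Actb was at 4306 and 4789 CPM, Vim at 5966 and 5802 CPM, and Tagln2, the widely expressed relative of Tagln, at 840 and 660 CPM. The ratio of Tagln2, -0.35 (-0.51 to -0.18), was smaller than that of Tagln, with intervals that did not overlap.

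The 10 genes outside the list whose log2 level over 6 classes in both libraries was most like that of the contractile sum, of 2261 candidates and over 12 points, were Lhfp, Rock2, Dbn1, Calu, Ctgf, Tuba1a, Bmp1, Steap4, Arhgef40 and Ptms. Their Pearson correlations ran from 0.968 for Lhfp to 0.932 for Ptms. The points share libraries and cell classes of very different size, so these values describe the pattern and have no p. In mural-gated cells Lhfp was at 90.5 (WT) and 262 (KO) CPM, and at 170.5 and 117 CPM in other fibroblasts, and thus had the same directions between genotypes as Acta2. Ctgf, a matricellular gene, was at 148 and 262 CPM in mural-gated cells and at 287 and 113 CPM in other fibroblasts.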

How the data were processed

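Small B16F10 tumours of 2 host genotypes were profiled by droplet sequencing of RNA 3′ ends, with 1 pooled library each. Per the submitters' processing notes, the authors aligned reads to GRCm38 and counted UMIs with Cell Ranger 3.1.0 and analysed them with Seurat 3.2.1. Labels and methods name different kit versions. The deposited values are raw UMI counts for every gene and barcode, with 38417113 UMIs in 6304 WT barcodes and 38290024 in 5474 KO barcodes, each with at least 500 UMIs.

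The cell filter was that of the study, 200 to 5000 detected genes with no more than 7.5% of UMIs mitochondrial. Classes were set by counting detected markers per cell. Mural-gated cells had at least 1 Rgs5 UMI, 3 mural markers, under 3 pan-immune and under 6 melanoma markers. Other fibroblasts had at least 6 fibroblast markers, and did not pass the mural gate or reach 5 endothelial, 3 immune or 6 melanoma markers. Endothelial, melanoma, and macrophage and monocyte classes needed 5, 6 and 4 of their own markers. The members and lists were chosen with earlier results of these data known, and the marker thresholds and the cut at 5 Acta2 UMIs were set after seeing the data.

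For each class and library, UMIs were added up over its cells and scaled to CPM. Sums have exact Poisson intervals, ratios exact conditional binomial intervals and shares Clopper-Pearson intervals, all 95%. A count of 0 was given a floor of 3 UMIs. With 1 library per genotype no test was made, and "2-fold" counts cover genes with at least 20 UMIs over both groups. The named genes are the 10 members, every list gene past 2-fold with those needed to describe a list, and the 10 genes with at least 50 UMIs in fibroblasts and mural-gated cells of each library whose log2(CPM + 1) correlated best with the contractile sum. Other genes singled out in the text (Klf4, Ednrb, Actb, Vim, Tagln2 and Srf among the lists) were picked after their values were seen. Doublets were not removed, except as an alternative, in which Scrublet called 114 WT and 50 KO cells, among them 3 WT and 1 KO other fibroblasts and 0 mural-gated cells. Promoter windows came from RefSeq and gene positions from GENCODE, both on the build of the files. Python 3.11.15, numpy 2.4.6, pandas 2.3.3, scipy 1.17.1, scanpy 1.11.5 and matplotlib 3.10.9 were used. The ratio and interval code was tested on simulated data. In all 14 alternative settings were run, 1 of them added after seeing the data.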

Additional observations from a re-analysis of the deposited data

Results flagged for a closer look

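Several contractile genes had KO over WT ratios of opposite sign in mural-gated cells and in other fibroblasts. The log2 ratio of Acta2 was 0.8493 in mural-gated cells and -1.287 in other fibroblasts, that of Tagln 2.025 and -1.123, and that of Myl9 1.183 and -0.8867. The contractile sum gave 1.127 and -0.2849. Each value compares 1 library with 1 library, so the difference between the classes was not tested. In mural-gated cells with under 5 endothelial markers, Acta2 was at -0.37 and Myl9 at -0.88, so for these genes the opposite signs were not seen there, while Tagln was at 1.57 and the sum at 0.43.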

How the results depend on the processing

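No paired analysis was possible because there was a single library per genotype, and for the same reason no replicate could be left out. Of the log2 ratios of sums, Acta2 and the mural share under the alternatives, 66 stayed within their counting interval, 28 moved beyond it and 4, whose intervals excluded 0, changed sign. Of those of single members, 352, 69 and 10 did. Counting also ratios whose interval included 0, 6 of 98 and 21 of 431 had the opposite sign. These counts are not of independent checks, since some settings left the compared cells unchanged. Lifting the upper limit on genes changed neither class, and removing doublets changed no mural-gated cell. Stricter exclusion of other lineages and few endothelial markers gave the same mural-gated cells, 3 in WT and 6 in KO. The causes were not tested. The setting with under 5 endothelial markers was added after seeing the data. The contractile sum of mural-gated cells over other fibroblasts in WT (0.25) was 0.55 at a limit of 15% mitochondrial UMIs, -0.31 with a stricter mural gate, 0.0272 with Rgs5 alone as the gate, 1.64 (1.635) with stricter exclusion of other lineages, -0.0206 with median-of-ratios scaling, 0.9994 thinned, 1.03 as a mean of cells' CPM, 0.0218 without the top cell of each class and 1.64 (1.639) with few endothelial markers. In KO (1.66) it was 1.35 with a stricter mural gate, 1.29 with Rgs5 alone, 2.31 with stricter exclusion, 1.98 thinned, 2.12 as a mean, 1.49 without the top cells (1.485) and 2.35 with few endothelial markers. Acta2, KO over WT in mural-gated cells (0.85), was 0.43 at 15%, 1.45 with the stricter gate, -0.37 with stricter exclusion and with few endothelial markers, 0.34 thinned, 0.25 as a mean and 0.51 in cells with Xist alone. The sum (1.13) was 0.73, 1.44, 0.43, 0.43, 0.80, 0.87 and 0.85 in the same order. In other fibroblasts the sum (-0.28) was -0.18 thinned and -0.40 with Xist alone. Among members, Tpm2 in WT mural-gated cells over other fibroblasts (-0.71) was 0.0774 at 15%, 2.02 with stricter exclusion, 0.49 thinned, 0.48 as a mean and 2.02 with few endothelial markers. In KO over WT mural-gated cells Myl9 (1.18) was -0.88 with stricter exclusion and with few endothelial markers and -0.18 as a mean, and Tpm1 (0.65) was -0.0324 thinned and -0.24 with Xist alone. With at least 20, 100 and 3 UMIs, genes at least 2-fold higher in mural-gated cells numbered 529, 54 and 1896 in WT and 753, 92 and 2348 in KO, those higher in KO mural-gated cells 128, 7 and 1405, and those lower in KO other fibroblasts 410, 76 and 1329. The 11 and 12 mural-gated cells limit all of these values.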
